A study of Mus musculus with 43 samples.

Results

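47 genes whose products work in the nucleolus on the making of ribosomes were followed through the reprogramming of mouse fibroblasts to pluripotency. They were chosen by symbol, each of the 47 was found in all 5 tables of expression values among 38983 shared genes, and none was listed at 0 in any of the 43 libraries. Courses of reprogramming make up 34 of the libraries, and experiments on Myc the other 9. Fibroblasts of mouse embryos (MEF) with a doxycycline-inducible cassette of the factors Oct4, Klf4, Sox2 and Myc were induced with doxycycline in serum and LIF at low oxygen. Per the labels, the medium was replaced on day 3.5 by serum replacement and LIF plus small molecules that block MEK and GSK3, although the growth protocol gives an earlier addition of the inhibitors. From day 3 on, and for the induced pluripotent (iPSC, at least 3 passages) and embryonic (ES) stem cells, irradiated fibroblasts of human foreskin served as feeders, so time, medium and feeder layer cannot be told apart. Mbd3f/- cells carry a floxed and a null allele of Mbd3, a subunit of the NuRD chromatin remodelling complex (11 libraries: MEF, each of days 1 to 8, iPSC and ES). Gatad2a-/- cells are labelled as null for Gatad2a, another NuRD subunit (10 libraries: MEF, each of days 1 to 8 and iPSC). WT-1 (7 libraries: MEF, days 2, 4, 6 and 8, then iPSC plus ES) and WT-2 (6 libraries, without ES) are wild-type lines, WT-2 being isogenic to Gatad2a-/-; the ES are an Mbd3f/- line and the wild-type line V6.5. Mbd3f/- and Gatad2a-/- are called depleted here. A system has 1 library per stage, so replicates are systems (n), and the labels do not say whether stages were separate cultures.

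Ribosome synthesis begins in the nucleolus, where RNA polymerase I (Polr1a, Polr1b and Polr1c are subunits) copies the ribosomal DNA. Box C/D particles (methyltransferase Fbl with Nop56 and Nop58) and box H/ACA particles (pseudouridine synthase Dkc1 with Gar1, Nhp2 and Nop10) modify the precursor RNA, while assembly factors fold and cut it into the RNAs of the small subunit (Heatr1, Rrp9 and others) and of the large subunit (Bop1, Pes1 and Wdr12, which act as a complex, and others). The nucleolar proteins Ncl, Npm1 and Nolc1 act as chaperones. Ribosome biogenesis genes are textbook targets of Myc, which binds the E-box CACGTG with its partner Max, and their output scales with growth and division. By role, the 47 members were split into 6 C/D particle proteins and chaperones, 4 H/ACA proteins, 4 factors of ribosomal DNA transcription (the polymerase subunits and the helicase Ddx21), 16 small-subunit and 17 large-subunit factors.

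Promoter windows of 300 bases (250 before to 50 after the start, RefSeq, GRCm38.p6) were matched for 41 of the 47 members. The E-box CACGTG, which reads the same on both strands, was present in 8 of the 41 (19.5%), against 8.09% of all genes with a window and 11.3% of 11545 expressed genes. The sites are shown because the Myc libraries bear on them, with the E-box in capitals within 30 bases and positions counted from the RefSeq start.
Nop2 (chr6:125131811-125131840, plus strand, E-box 60 bases before the start): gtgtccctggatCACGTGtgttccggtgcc
Pes1 (chr11:3963965-3963994, plus strand, E-box 3 bases after the start): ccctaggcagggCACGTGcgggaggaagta
Utp20 (chr10:88826765-88826794, minus strand, E-box 38 bases after the start): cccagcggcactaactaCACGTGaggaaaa
Wdr43 (chr17:71616220-71616249, plus strand, E-box 18 bases after the start): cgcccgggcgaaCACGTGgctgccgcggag
Tsr1 (chr11:74898092-74898121, plus strand, E-box 25 bases after the start): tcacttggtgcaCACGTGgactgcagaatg
Ltv1 (chr10:13193092-13193121, minus strand, E-box 29 bases after the start): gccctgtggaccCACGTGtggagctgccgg
Imp4 (chr1:34439696-34439725, plus strand, E-box 121 bases before the start): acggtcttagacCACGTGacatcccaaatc
Grwd1 (chr7:45830740-45830769, minus strand, E-box 35 bases after the start): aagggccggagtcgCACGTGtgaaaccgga
In Nop2 and Imp4 the E-box lies upstream of the start; in the other 6 it lies just inside the transcribed part. The related E-box CACGCG (either strand) was in 11 members (26.8%, against 18.4% of expressed genes) and the ETS-type motif CCGGAAG (either strand) in 16 (39.0%, against 17.6%). A match of letters is no evidence of binding.

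Values were FPKM per gene (fragments per kilobase of transcript, scaled to the library), in a table per system and 1 for the Myc libraries, so levels are compared within a table only. The tables differed in scale: the libraries of Gatad2a-/- held 15485 to 16896 genes of at least 1 FPKM and FPKM sums up to 10044670 (day 6), the other course libraries 12266 to 13983 genes and sums of at most 917427. Genes of the mitochondrial genome, 37 in number, read 0 throughout, so a 0 in these tables may be a failed estimate, and library depth is unknown. Mbd3 stood at 36.3 to 96.5 FPKM in Mbd3f/- libraries (WT-1: 75.3 to 117, WT-2: 52.98 to 135). Gatad2a stood at 8.59 to 14.7 in Gatad2a-/- libraries (10.2 in MEF) and at 9.17 to 11.5 in WT-2 libraries before iPSC (10.5 in MEF), with 13.4 against 38.5 in iPSC. The systems' tables were normalized separately, and which parts were deleted is not stated in the labels, so these values neither bear out nor refute the genotypes. Between MEF and iPSC all 10 fibroblast markers fell, all 10 pluripotent cell markers rose and 6 of 7 macrophage markers fell; the summed macrophage markers were highest in WT-2 MEF to day 8 (3862 to 8057 FPKM) and in Mbd3f/- MEF (1061), and their part in the results was not tested. In such bulk samples, a change in the share of a cell type and a change per cell cannot be told apart. Exons of 21 members overlap those of another gene and 7 members hold 21 snoRNA genes, and the library kit does not mark strand, so these members' values may hold reads of the overlapping gene.

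Within a library Npm1, the nucleolar histone and ribosome chaperone, was the most abundant member in all 43 libraries, and the lowest was most often Rrp12 (15 libraries), a small-subunit export factor, or Noc3l (14 libraries). Ncl (nucleolin, chr1:86344719-86359400, minus strand) binds precursor ribosomal RNA. In Mbd3f/-, Ncl began at 38.7 FPKM (MEF), measured 424, 464, 505, 283, 299, 244, 143 and 174 through days 1 to 8, and ended at 227 (iPSC) and 401 (ES). The Gatad2a-/- series ran from 125 FPKM (MEF) through 545, 442, 384, 492, 445, 307, 322 and 253 (days 1 to 8) to 429.7 (iPSC). For Ncl, WT-1 went from 107 FPKM (MEF) to 89.4, 203, 171 and 191 (days 2, 4, 6 and 8), 389 (iPSC) and 224 (ES), whereas WT-2 went from 35.4 to 43.7, 38.8, 29.3 and 27.4 and 208. Every induced library of both depleted systems lay above its own MEF, whereas WT-2 stayed near MEF until iPSC. Npm1 (chr11:33152287-33163206, minus strand) binds histones and ribosomal particles. Npm1 stood at 172 FPKM in MEF of Mbd3f/-, then at 865, 907, 1069, 782, 758, 687, 447 and 557 (days 1 to 8), with 537 for iPSC and 1502 for ES. With Gatad2a-/- cells, Npm1 read 1599 FPKM at the MEF stage, 4474, 4701, 4313, 5519, 5023, 4148, 3904 and 3522 over days 1 to 8 and 5187 as iPSC. For Npm1, WT-1 went from 327 FPKM (MEF) to 286, 567, 524 and 885 (days 2, 4, 6 and 8), 1971 (iPSC) and 626 (ES), whereas WT-2 went from 89.0 to 129, 105, 88.9 and 75.2 and 735. WT-2 did not exceed its MEF on days 6 and 8. Fbl (fibrillarin, chr7:28169710-28179269, plus strand) methylates ribosomal RNA. In Mbd3f/-, Fbl began at 3.68 FPKM (MEF), measured 42.9, 42.0, 46.6, 35.6, 39.4, 34.5, 24.3 and 23.5 through days 1 to 8, and ended at 26.8 (iPSC) and 21.4 (ES). Gatad2a-/- values of Fbl were 91.2 FPKM for MEF, 309.8, 323, 286, 334, 347, 295, 232 and 146 through days 1 to 8, then 258 for iPSC. For Fbl, WT-1 went from 7.17 FPKM (MEF) to 7.56, 19.6, 19.1 and 18.5 (days 2, 4, 6 and 8), 26.4 (iPSC) and 25.97 (ES), whereas WT-2 went from 5.90 to 7.97, 5.40, 7.38 and 5.05 and 46.2. Relative to MEF, each day of Mbd3f/- stood higher than any WT library before iPSC. Nop56 (chr2:130274430-130279313, plus strand), a scaffold of the C/D particle, holds snoRNA genes and shares exon sequence with Idh3b on the other strand. Nop56 stood at 31.4 FPKM in MEF of Mbd3f/-, then at 326, 332, 384, 271, 303, 302, 165 and 210.0 (days 1 to 8), with 259 for iPSC and 378 for ES. The Gatad2a-/- series ran from 134 FPKM (MEF) through 522, 354, 323, 457, 498, 419, 361 and 282 (days 1 to 8) to 416 (iPSC). For Nop56, WT-1 went from 67.0 FPKM (MEF) to 56.6, 176, 169 and 210.2 (days 2, 4, 6 and 8), 457 (iPSC) and 256 (ES), whereas WT-2 went from 26.5 to 37.2, 28.7, 27.6 and 28.5 and 299.5. WT-1 moved between day 2 and day 4 and again between day 8 and iPSC.

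Among the H/ACA proteins, Dkc1 (dyskerin, chrX:75095854-75109777, plus strand) is the catalytic subunit, also found in telomerase. In Mbd3f/-, Dkc1 began at 7.37 FPKM (MEF), measured 88.5, 115, 117, 105, 117, 119, 110.2 and 102 through days 1 to 8, and ended at 119.7 (iPSC) and 134 (ES). With Gatad2a-/- cells, Dkc1 read 78.2 FPKM at the MEF stage, 324, 258, 246, 342, 324, 327, 314 and 243 over days 1 to 8 and 392.3 as iPSC. For Dkc1, WT-1 went from 21.9 FPKM (MEF) to 18.6, 79.6, 50.02 and 42.1 (days 2, 4, 6 and 8), 101 (iPSC) and 99.0 (ES), whereas WT-2 went from 13.0 to 14.1, 13.1, 9.44 and 11.2 and 132. In Mbd3f/- the values from day 2 to iPSC lay close together. Exons of Dkc1 overlap those of Mpp1 on the other strand. Nhp2 (chr11:51619735-51623714, plus strand), a core protein of the particle, had the largest change between MEF and iPSC of the 47. Nhp2 stood at 19.6 FPKM in MEF of Mbd3f/-, then at 371, 304, 356, 271, 291, 255, 135 and 156 (days 1 to 8), with 193 for iPSC and 255 for ES. Gatad2a-/- values of Nhp2 were 45.5 FPKM for MEF, 201, 133, 118, 180.5, 187, 165, 144 and 92.3 through days 1 to 8, then 179 for iPSC. For Nhp2, WT-1 went from 39.1 FPKM (MEF) to 37.3, 109, 112 and 181.96 (days 2, 4, 6 and 8), 378 (iPSC) and 203 (ES), whereas WT-2 went from 25.1 to 38.0, 35.9, 47.9 and 37.2 and 339. Both depleted systems stood lower on day 8 than on day 1, while WT-1 stood higher on day 8 than on any earlier day. Polr1b (chr2:129100995-129126594, plus strand) is the second-largest subunit of RNA polymerase I. In Mbd3f/-, Polr1b began at 3.06 FPKM (MEF), measured 40.6, 41.5, 45.9, 24.8, 42.8, 41.3, 30.1 and 38.2 through days 1 to 8, and ended at 33.3 (iPSC) and 43.1 (ES). The Gatad2a-/- series ran from 6.98 FPKM (MEF) through 36.7, 31.4, 23.6, 37.0, 49.3, 35.8, 33.7 and 36.2 (days 1 to 8) to 28.3 (iPSC). For Polr1b, WT-1 went from 7.33 FPKM (MEF) to 6.07, 25.6, 22.0 and 18.8 (days 2, 4, 6 and 8), 40.6 (iPSC) and 29.0 (ES), whereas WT-2 went from 3.40 to 5.08, 3.28, 3.43 and 2.49 and 28.4. Both depleted systems exceeded their own iPSC on most days, and WT-2 was below MEF on day 8. Heatr1 (chr13:12395027-12440289, plus strand) acts in the small-subunit processome and in transcription of ribosomal DNA. Heatr1 stood at 2.52 FPKM in MEF of Mbd3f/-, then at 22.7, 24.8, 26.6, 18.2, 26.5, 24.2, 13.99 and 15.1 (days 1 to 8), with 27.1 for iPSC and 28.7 for ES. With Gatad2a-/- cells, Heatr1 read 11.9 FPKM at the MEF stage, 39.7, 26.7, 24.8, 38.1, 40.9, 32.4, 30.8 and 29.4 over days 1 to 8 and 40.0 as iPSC. For Heatr1, WT-1 went from 6.60 FPKM (MEF) to 4.62, 10.7, 8.63 and 8.08 (days 2, 4, 6 and 8), 24.0 (iPSC) and 24.7 (ES), whereas WT-2 went from 3.33 to 4.46, 2.49, 2.203 and 1.73 and 18.6. WT-2 had its lowest value on day 8, just before the highest one in iPSC. Dcaf13 (chr15:39112865-39146856, plus strand), another processome protein, had the smallest change between MEF and iPSC. In Mbd3f/-, Dcaf13 began at 19.4 FPKM (MEF), measured 60.8, 52.5, 61.3, 44.9, 58.7, 58.2, 49.7 and 45.3 through days 1 to 8, and ended at 50.1 (iPSC) and 76.4 (ES). Gatad2a-/- values of Dcaf13 were 32.8 FPKM for MEF, 58.0, 42.7, 38.8, 57.6, 59.0, 49.5, 56.0 and 57.7 through days 1 to 8, then 40.5 for iPSC. For Dcaf13, WT-1 went from 42.5 FPKM (MEF) to 35.6, 35.2, 37.3 and 48.8 (days 2, 4, 6 and 8), 80.7 (iPSC) and 46.2 (ES), whereas WT-2 went from 19.5 to 21.6, 23.8, 26.4 and 19.1 and 48.3. Its day 8 value in Gatad2a-/- exceeded that of iPSC.

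Of the large-subunit factors, Bop1 (chr15:76452989-76477277, minus strand) forms a complex with Pes1 and Wdr12. Bop1 stood at 6.72 FPKM in MEF of Mbd3f/-, then at 124, 110.3, 126, 71.6, 90.6, 67.7, 40.0 and 42.7 (days 1 to 8), with 63.1 for iPSC and 43.8 for ES. The Gatad2a-/- series ran from 15.7 FPKM (MEF) through 41.4, 24.2, 19.0, 33.0, 35.5, 23.0, 24.5 and 23.1 (days 1 to 8) to 29.7 (iPSC). For Bop1, WT-1 went from 20.4 FPKM (MEF) to 15.6, 28.8, 24.1 and 26.8 (days 2, 4, 6 and 8), 53.3 (iPSC) and 56.1 (ES), whereas WT-2 went from 11.95 to 17.1, 16.1, 18.2 and 17.8 and 58.5. Gatad2a-/- came near its MEF level on day 3 and stood higher again on day 4. Rrs1 (chr1:9545408-9547455, plus strand) recruits the ribonucleoprotein of the smallest ribosomal RNA. In Mbd3f/-, Rrs1 began at 6.37 FPKM (MEF), measured 64.9, 62.0, 60.8, 20.5, 38.4, 32.4, 24.8 and 32.6 through days 1 to 8, and ended at 39.8 (iPSC) and 34.8 (ES). With Gatad2a-/- cells, Rrs1 read 15.4 FPKM at the MEF stage, 59.3, 33.3, 28.8, 66.1, 35.4, 29.0, 31.9 and 28.7 over days 1 to 8 and 36.7 as iPSC. For Rrs1, WT-1 went from 15.0 FPKM (MEF) to 11.3, 51.7, 47.05 and 46.9 (days 2, 4, 6 and 8), 52.3 (iPSC) and 35.7 (ES), whereas WT-2 went from 10.7 to 16.3, 10.8, 12.4 and 11.4 and 55.1. Its day 4 values split the depleted systems, low in Mbd3f/- and highest of the course in Gatad2a-/-. Gnl3 (nucleostemin, chr14:31012433-31019152, minus strand) is a nucleolar GTPase known from stem cells, and its exons overlap those of Pbrm1 on the other strand. Gnl3 stood at 22.5 FPKM in MEF of Mbd3f/-, then at 132, 141, 161, 106, 138, 144, 72.5 and 80.4 (days 1 to 8), with 90.3 for iPSC and 166 for ES. Gatad2a-/- values of Gnl3 were 50.003 FPKM for MEF, 159, 120.1, 133, 161, 148, 87.8, 96.1 and 118 through days 1 to 8, then 141 for iPSC. For Gnl3, WT-1 went from 51.4 FPKM (MEF) to 38.2, 108, 101 and 101 (days 2, 4, 6 and 8), 174 (iPSC) and 104 (ES), whereas WT-2 went from 18.9 to 23.9, 20.6, 29.8 and 25.8 and 115. In both WT systems iPSC held the highest level of the course.

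**Figure D1:**
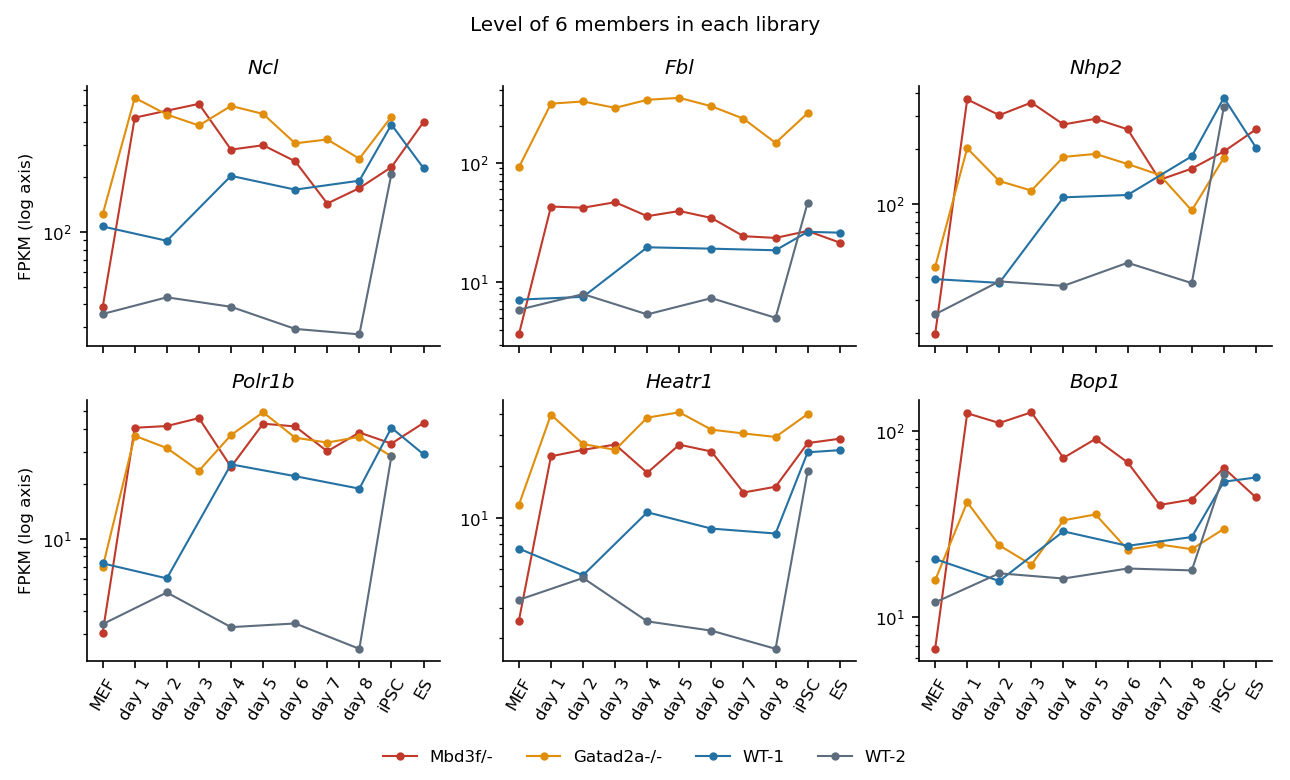
FPKM (log axis) of Ncl, Fbl, Nhp2, Polr1b, Heatr1 and Bop1 by stage, 1 point per library and 1 line per system. The lines of Mbd3f/- and Gatad2a-/- climb on day 1, WT-1 climbs on day 4 and WT-2 mainly in iPSC; tables were normalized separately, so heights are compared within a line.

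The first comparison set established iPSC against MEF in the 4 systems. All 47 members were higher in iPSC (limma on log2(FPKM + 1), Benjamini-Hochberg adjusted p under 0.05), where 29.0% of the 20305 genes tested rose and 23.9% fell. The median change was 1.92, against 0.14 for all genes, and in each of the 4 systems all 47 moved up. Chaperones and C/D proteins rose by 2.14 ± 0.33 (SE, n = 4 systems; Nop58) to 2.71 ± 0.40 (Nop56). H/ACA proteins ranged from 1.86 ± 0.35 for Gar1 to 3.03 ± 0.38 for Nhp2 (limma adjusted p = 2.36e-05). Of the transcription factors of ribosomal DNA, Polr1c, shared with RNA polymerase III, rose least (1.66 ± 0.23) and Polr1b most (2.50 ± 0.39). Small-subunit factors ran from Dcaf13 (0.95 ± 0.20, adjusted p = 0.00107 by limma) to Rrp12 (2.30 ± 0.40). Large-subunit factors ran from the helicase Ddx18 (1.49 ± 0.25) to the methyltransferase Ftsj3 (2.35 ± 0.31). The systems differed in size: the median member rose by 2.26 in Mbd3f/-, 1.36 in Gatad2a-/-, 1.74 in WT-1 and 2.31 in WT-2. Dcaf13 illustrates the spread, with 1.32, 0.29, 0.91 and 1.26 in that order. All 16 proliferation markers (such as Mcm2 and Mki67) rose as well, by a median of 2.60, and their part in the members' rise was not tested.

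The daily courses of the depleted systems asked when the change took place. On day 1 after doxycycline all 47 members had risen (background: 14.1% of 20198 genes rose), by a median of 2.199, more than the 1.92 reached in iPSC over the 4 systems; the 2 medians come from different sets of systems and their difference was not tested. Nolc1, a chaperone of snoRNPs, rose most of its group (3.17 ± 0.41, SE, n = 2 systems) and Npm1 least (1.90 ± 0.27). Nhp2 rose by 3.15 ± 0.48 and Gar1 by 1.98 ± 0.29, the ends of the H/ACA group. Ddx21, an RNA helicase that senses transcription by RNA polymerases I and II, rose by 3.07 ± 0.56, and Polr1c by 1.04 ± 0.19. Rrp9 (2.90 ± 0.53) and Dcaf13 (1.20 ± 0.28) bounded the small-subunit factors, Grwd1 (2.98 ± 0.68) and Pes1 (1.65 ± 0.30) those of the large subunit. In Mbd3f/- the median member rose by 2.88 and its median FPKM ratio was 8.01, in Gatad2a-/- by 1.62 with a ratio of 3.19. Ddx21 changed by 4.20 in Mbd3f/- and 1.95 in Gatad2a-/-. Of the 16 proliferation markers, 15 rose on day 1 (median 1.71), and 6 of the 10 fibroblast markers fell. Without the system block 24 members passed (6.56% of genes).

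**Figure D2:**
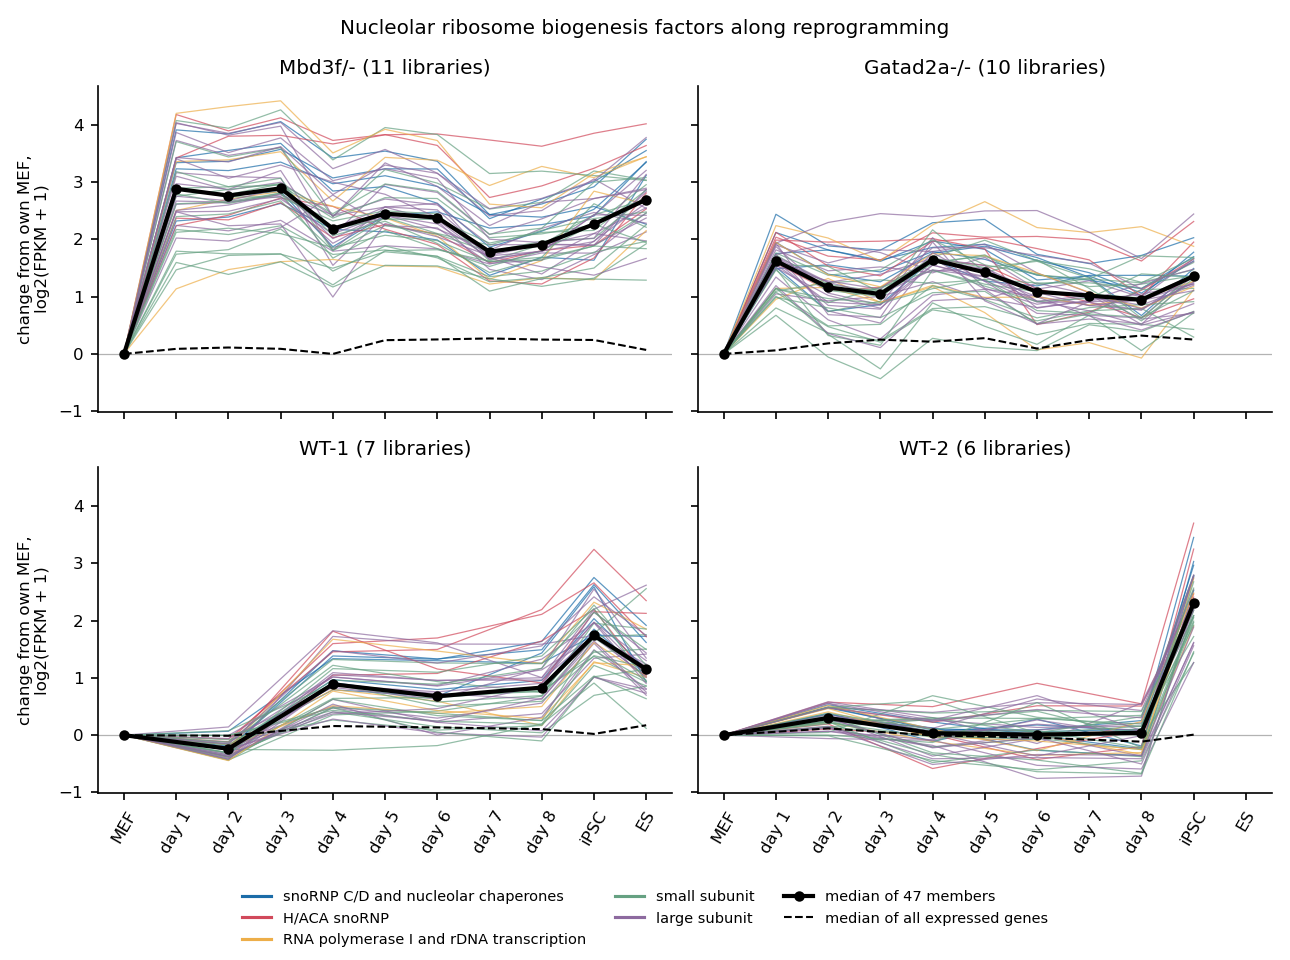
Change of log2(FPKM + 1) from the system's own MEF by stage, 1 thin line per member coloured by role, the black line the median of the 47 and the dashed line the median of all expressed genes. The median member stands at 2.88 on day 1 in Mbd3f/- and 1.62 in Gatad2a-/-, at -0.24 (WT-1) and 0.30 (WT-2) on day 2, and climbs last in WT-2, to 2.31 in iPSC.

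After day 1 the depleted systems did not hold a steady level. The median change from MEF in Mbd3f/- was 2.76, 2.89, 2.19, 2.45, 2.38, 1.78 and 1.91 over days 2 to 8, then 2.26 as iPSC. In Gatad2a-/- it was 1.16, 1.05, 1.64, 1.42, 1.09, 1.02 and 0.94 over days 2 to 8, then 1.36 as iPSC. Members peaked on day 3 (29 members) or day 1 (12) in Mbd3f/-, and on day 4 (17), day 1 (16) or day 5 (11) in Gatad2a-/-. The highest of the 8 days exceeded the system's own iPSC for 42 members in Mbd3f/- (median ratio 1.63) and 41 in Gatad2a-/- (1.24). In WT-1 and in WT-2 the highest of the 4 days did so for 0 members, and no test was made. A maximum over 8 libraries lies above a single library in most cases by its making, and the share over all genes was not counted. These counts therefore cannot show that members overshoot iPSC. Bysl, which acts in late small-subunit maturation, stood below its MEF value on days 2 and 3 in Gatad2a-/-: its 13.9 FPKM in MEF became 22.8, 13.4, 10.1, 17.0, 15.2, 14.5, 20.2 and 18.6 over days 1 to 8. Exons of Bysl overlap those of Ccnd3 on the other strand. In Mbd3f/- Bysl stood at 3.88 FPKM (MEF) and 43.3, 35.9, 39.9, 16.1, 24.5, 19.9, 17.2 and 20.8 (days 1 to 8). Polr1a, the largest subunit of RNA polymerase I, went in Gatad2a-/- from 30.9 FPKM on day 1 to 12.7 on day 8, below its MEF value of 13.4, and stood at 30.4 in iPSC.

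Between day 3 and day 4, around the medium change, the systems moved in opposite directions. Their median changes from MEF came closer, going from 2.89 to 2.19 in Mbd3f/- and from 1.05 to 1.64 in Gatad2a-/-. The median member changed by -0.61 in Mbd3f/-, where 45 of 47 were lower on day 4, and by 0.54 in Gatad2a-/-, where 42 were higher. Among expressed genes, 37.0% were higher on day 4 in Mbd3f/- and 45.9% in Gatad2a-/-. Of the 47, 41 were lower in Mbd3f/- and higher in Gatad2a-/-, a pattern seen in 28.4% of 15536 expressed genes; it was not tested, since each side is a difference of 2 libraries. Over both systems the test called 0 members and 0 genes (limma; 0 members and 1170 genes at an unadjusted p under 0.05). The fitted change lay between -0.24 ± 0.38 for Ncl and -0.00 ± 0.39 for Nop56 among C/D proteins and chaperones. It lay between -0.07 ± 0.29 (Gar1) and 0.16 ± 0.39 (Dkc1) for H/ACA proteins, and between -0.16 ± 0.56 (Ddx21) and 0.17 ± 0.19 (Polr1c) for ribosomal DNA transcription. Small-subunit values ran from -0.28 ± 0.26 (Nob1, an endonuclease) to 0.42 ± 0.42 (Tsr1), large-subunit values from -0.47 ± 0.27 (Noc2l) to 0.26 ± 0.20 (Rrp1b). Tsr1 shows the split: -0.41 in Mbd3f/- and 1.25 in Gatad2a-/-.

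**Figure D3:**
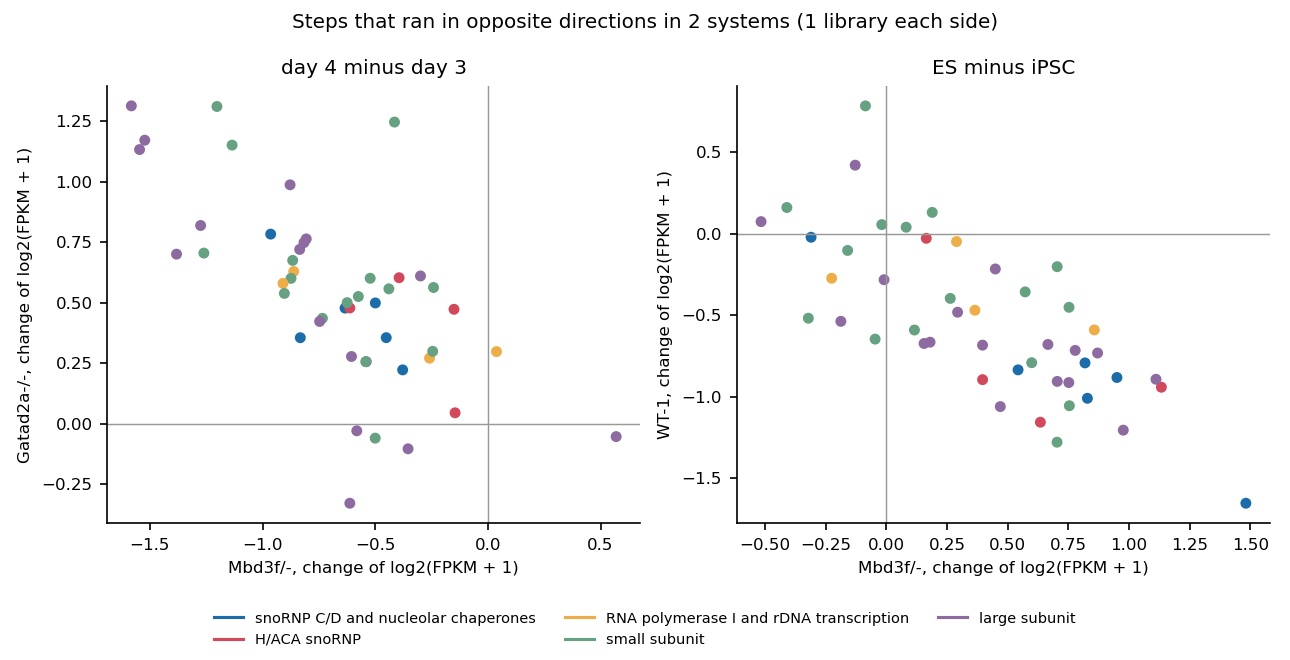
Change of log2(FPKM + 1) of each member over a step, in Mbd3f/- on the x axis and in a second system on the y axis, coloured by role. From day 3 to day 4, 41 members lie in the upper left quadrant; from iPSC to ES, 33 lie in the lower right one.

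Day 2 and day 8 were measured in all 4 systems, which allows the depleted systems to be set beside WT. On day 2, 46 of 47 members had risen in the depleted systems (9.97% of genes rose, 8.19% fell), with a median change of 1.99; Bysl missed the threshold (1.43 ± 0.48, limma adjusted p = 0.0566). Nolc1 led the chaperones (2.86 ± 0.52) and Nop58 trailed (1.75 ± 0.47). Dkc1 (2.75 ± 0.62) and Gar1 (1.72 ± 0.50) bounded the H/ACA proteins, and Ddx21 (2.85 ± 0.57) and Polr1c (1.39 ± 0.32) the factors of ribosomal DNA transcription. Rrp9 (2.58 ± 0.54) and Dcaf13 (0.88 ± 0.28) were the ends of the small-subunit group, Ebna1bp2 (2.35 ± 0.45) and Noc3l (1.30 ± 0.41) those of the large-subunit group. The median member changed by 2.76 in Mbd3f/- and 1.16 in Gatad2a-/-, against 0.11 and 0.18 for all expressed genes. This difference between the 2 systems was not tested. In the same comparison 7 of 10 fibroblast markers fell (median -3.54), 7 of 16 proliferation markers rose and 3 of 8 stress and RNA quality signs fell, against 0 in WT, and their part in the result was not tested. Without Mbd3f/- 0 members passed and the median was 1.16, while 13.3% of genes passed in either direction; without Gatad2a-/-, 39 members and 2695 of 16894 genes passed. Without the system block in the model 1 member passed (2.54% of genes), and with the compared stages alone 15 (6.97%).

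In WT no member passed on day 2, nor did any gene (0% of 20305; 0 members and 117 genes at an unadjusted p under 0.05), and the median member changed by 0.05. The 2 WT systems pointed in opposite directions. In WT-1, 44 members lay below MEF (median -0.24), and in WT-2, 45 lay above MEF (0.30). For all expressed genes the medians were -0.01 in WT-1 and 0.12 in WT-2. The median over all genes thus also lay above MEF in WT-2, and its part in the members' shift was not tested. The fitted values spanned 0.02 ± 0.45 (Ncl) to 0.22 ± 0.53 (Fbl) for C/D proteins and chaperones and -0.09 ± 0.50 (Gar1) to 0.25 ± 0.54 (Nhp2) for H/ACA proteins. They spanned -0.02 ± 0.57 (Ddx21) to 0.15 ± 0.32 (Polr1c) for ribosomal DNA transcription, -0.17 ± 0.40 (Tsr1) to 0.18 ± 0.45 (Noc4l) for the small subunit and -0.21 ± 0.36 (Ddx18) to 0.21 ± 0.43 (Mrto4) for the large one.

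The difference between classes on day 2 was tested directly. Both depleted systems exceeded both WT systems for 45 members (28.1% of genes did so), all but Rrp12 and Bysl, yet the test called 2: Nop16 (2.10 ± 0.49, limma adjusted p = 0.0418), a large-subunit factor, and Ncl (2.66 ± 0.64, limma adjusted p = 0.0481), where 0.557% of genes were called higher and 1.87% lower. At an unadjusted p under 0.05, 45 members passed. Nop16 changed by 2.86 in Mbd3f/-, 1.59 in Gatad2a-/-, -0.00 in WT-1 and 0.24 in WT-2. Ncl changed by 3.55, 1.81, -0.26 and 0.30 in the same order, so in both genes the classes did not overlap. Next by adjusted p came Ddx18 (2.05 ± 0.51, limma adjusted p = 0.0521), Noc2l (2.34 ± 0.60) and the acetyltransferase Nat10 (2.23 ± 0.57). Values in the role groups ran from Nop58 (1.61 ± 0.67) to Nolc1 (2.80 ± 0.73), from Gar1 (1.82 ± 0.71) to Dkc1 (2.81 ± 0.88), from Polr1c (1.24 ± 0.45) to Ddx21 (2.87 ± 0.81), from Dcaf13 (0.93 ± 0.39) to Rrp9 (2.55 ± 0.76) and from Noc3l (1.28 ± 0.58) to Ebna1bp2 (2.38 ± 0.64). Neither call held when any of the 4 systems was left out: the count was 0 without Mbd3f/-, WT-1 or WT-2, and the 10 members called without Gatad2a-/- held 0 of these 2. It was also 0 with a pseudocount of 0.1 and without the filter on low values.

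By day 8, 37 members had risen in the depleted systems (19.0% of genes rose, 15.3% fell), with a median of 1.42. All 6 C/D proteins and chaperones passed, from Npm1 (1.41 ± 0.43) to Nolc1 (2.17 ± 0.52). Of the H/ACA proteins 2 passed, Dkc1 the most (2.62 ± 0.62), while Nop10 (1.17 ± 0.47) and Gar1 (1.22 ± 0.50) missed the threshold. Polr1b rose by 2.75 ± 0.55, the largest change of the 47, and Polr1a had 0.78 ± 0.45 (limma adjusted p = 0.191). Small-subunit factors passed in 12 of 16 cases, with Rrp9 highest (2.22 ± 0.54) and Imp4 lowest (0.93 ± 0.42, not called). Large-subunit factors passed in 14 of 17, from Nop16 (0.95 ± 0.35) to Ftsj3 (1.92 ± 0.44). The other members that missed the threshold were Rrs1, Utp20, Bysl, Noc4l, Ebna1bp2 and Grwd1. In this comparison all 10 fibroblast markers, 5 of 7 macrophage markers and 3 of 8 stress and RNA quality signs fell, and all 10 pluripotent cell markers and 10 of 16 proliferation markers rose; their part was not tested. Without Mbd3f/- 0 members passed (median 0.94), where 30.9% of genes passed in either direction. Without Gatad2a-/- 23 members passed (23.8% of genes), and without the system block 1 did (14.3%). From day 8 to iPSC no member was called in these systems (limma; 0.246% of genes rose and 0.320% fell; 1 member at an unadjusted p under 0.05), with a median of 0.35. Polr1a had the largest value of that step (1.20 ± 0.45, limma adjusted p = 0.558) and Polr1b the smallest (-0.27 ± 0.55). The other role groups ran from Nop58 (0.07 ± 0.47) to Ncl (0.57 ± 0.45), from Gar1 (0.21 ± 0.50) to Nhp2 (0.63 ± 0.54), from Dcaf13 (-0.18 ± 0.28) to Tsr1 (0.63 ± 0.40) and from Noc2l (0.07 ± 0.42) to Nip7 (0.71 ± 0.40).

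In WT no member passed on day 8 (limma; 0.438% of genes rose, 0.719% fell; 3 members at an unadjusted p under 0.05), and the median was 0.45. WT-1 and WT-2 differed: the median member stood 0.83 above MEF in WT-1, where 45 were higher, and 0.04 in WT-2, where 24 were higher and 23 lower. Of expressed genes, 53.5% were higher in WT-1 and 42.2% in WT-2. Nhp2 had the largest value (1.37 ± 0.54) and Dkc1 the smallest of the H/ACA proteins (0.35 ± 0.62). The remaining groups ran from Ncl (0.23 ± 0.45) to Nop56 (0.87 ± 0.56), from Polr1a (-0.07 ± 0.45) to Polr1b (0.46 ± 0.55), from Krr1 (-0.39 ± 0.32) to Emg1 (0.76 ± 0.34) and from Noc3l (-0.27 ± 0.41) to Rrs1 (0.83 ± 0.67). On day 4, 46 members already stood above MEF in WT-1 (median 0.89; 60.6% of expressed genes stood higher) and 26 in WT-2 (0.03; 49.6%), with no test of the difference in timing. From day 8 to iPSC 42 of 47 members rose in WT (19.6% of genes rose, 15.7% fell), by a median of 1.63, made of 1.02 in WT-1 and 2.24 in WT-2. All 16 proliferation markers and all 10 pluripotent cell markers rose in that step, and 9 of 10 fibroblast markers, 2 of 7 macrophage markers and 4 of 8 stress and RNA quality signs fell; their part was not tested. Those that missed the threshold were Nop10 (1.25 ± 0.47), Rrs1 (1.16 ± 0.67), Bop1, Utp20 and Grwd1. Nop56 (2.23 ± 0.56) and Fbl (1.73 ± 0.53) bounded their group, Dkc1 led the H/ACA proteins (2.35 ± 0.62), and the polymerase subunits Polr1a (1.66 ± 0.45) and Polr1b (2.07 ± 0.55) were the ends of theirs. Heatr1 (2.15 ± 0.45) and Dcaf13 (1.00 ± 0.28) were the ends of the small-subunit group, and Rrp1b rose most among large-subunit factors (2.10 ± 0.53). Without WT-2, 0 members passed and the median was 1.02 (8.58% of genes passed in either direction); without Mbd3f/- 24 members passed (32.3%). Without the system block 1 passed (2833 of 20305 genes), and with the compared stages alone 21 (27.0%).

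On day 8 the classes overlapped more than on day 2. Both depleted systems exceeded both WT systems for 26 members (32.7% of genes did so) and 21 overlapped, WT-1 lying above Gatad2a-/- for 20. The test of the difference called 2 members (8.40% of genes were called higher, 7.73% lower), both of the small-subunit group: Krr1 (1.81 ± 0.45, limma adjusted p = 0.0154) and the helicase Ddx10 (1.53 ± 0.39, limma adjusted p = 0.0172). Krr1 changed by 1.44 in Mbd3f/-, 1.40 in Gatad2a-/-, -0.10 in WT-1 and -0.68 in WT-2. In Ddx10 the values were 1.64, 1.15, 0.17 and -0.45. At this share the count of 2 of 47 is below the background, and at an unadjusted p under 0.05 it was 12. Heatr1 (1.92 ± 0.64), Polr1b (2.29 ± 0.78) and Noc3l (1.69 ± 0.58) came next by adjusted p. Group ranges went from Npm1 (0.82 ± 0.61) to Nolc1 (1.39 ± 0.73), from Nop10 (-0.14 ± 0.66) to Dkc1 (2.27 ± 0.88), from Polr1c (0.78 ± 0.45) to Polr1b, from Emg1 (0.23 ± 0.48) to Heatr1 and from Nop16 (0.30 ± 0.49) to Noc3l. The count was 0 without Mbd3f/- or WT-2. Without Gatad2a-/- it was 3, with 0 of these 2 among them, and without WT-1 it was 6, with both.

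**Figure D4:**
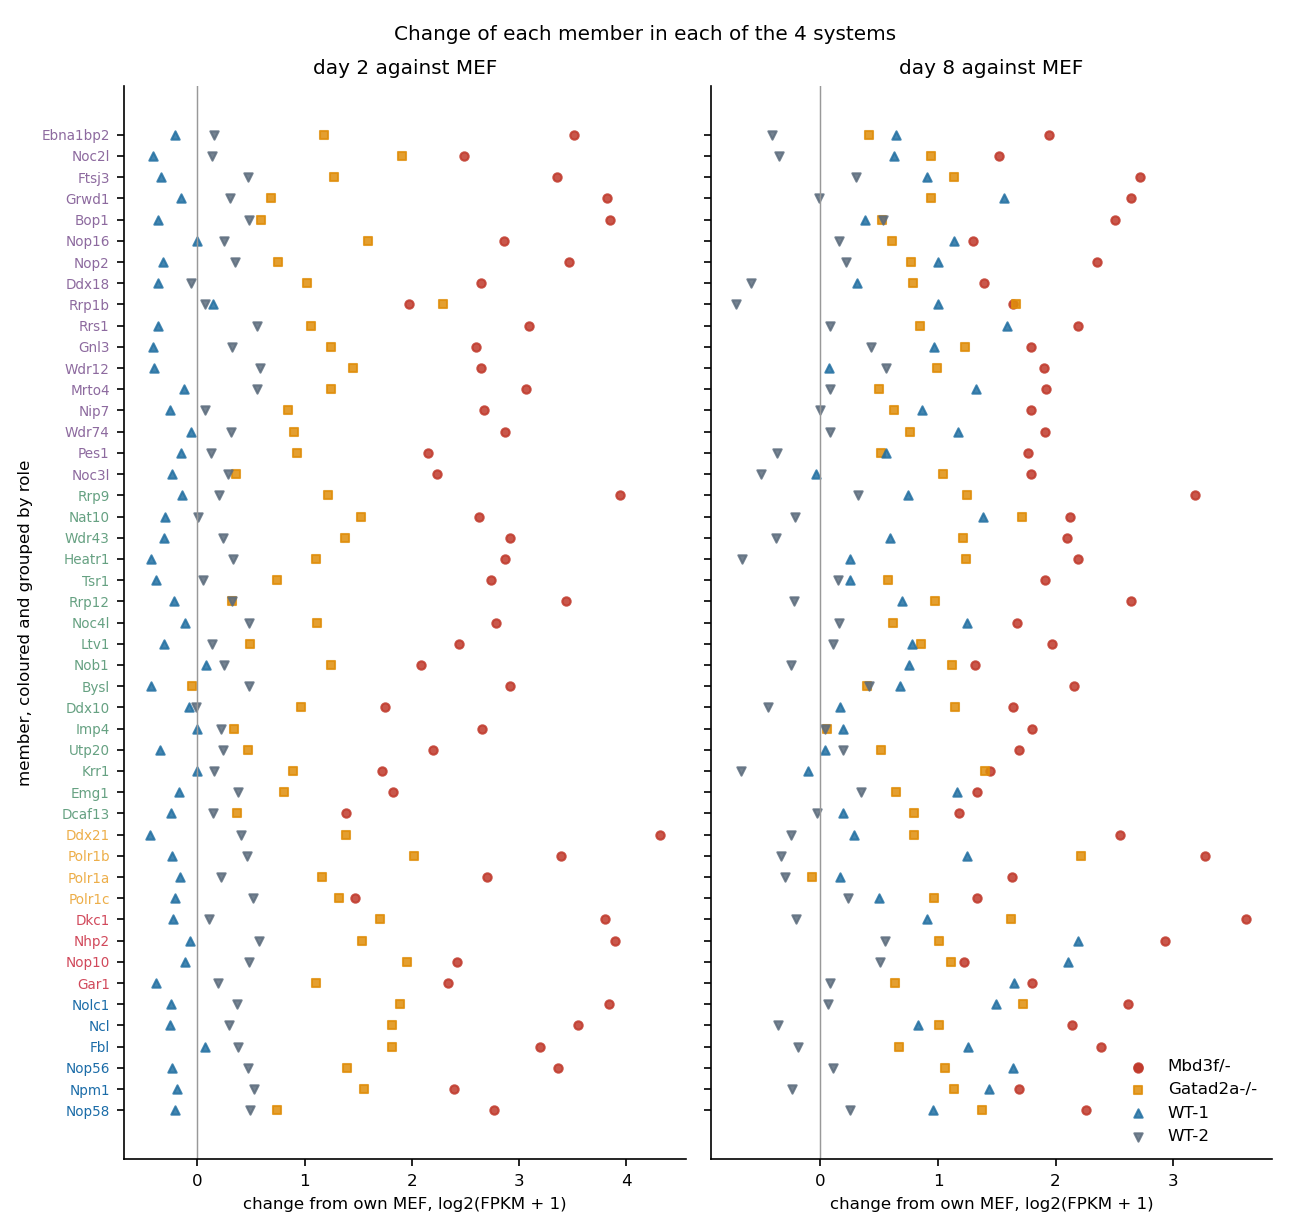
Change of log2(FPKM + 1) from the system's own MEF on day 2 (left) and day 8 (right), 1 row per member and 1 symbol per system, names coloured by role. On day 2 both depleted systems lie right of both WT systems for 45 of 47 members (28.1% of genes did so). On day 8 this holds for 26 (32.7% of genes). The median member then stands at 1.91 (Mbd3f/-), 0.94 (Gatad2a-/-), 0.83 (WT-1) and 0.04 (WT-2). For all expressed genes the medians are 0.25, 0.32, 0.11 and -0.11 in that order.

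ES were measured beside iPSC in Mbd3f/- and WT-1. From iPSC to ES the median member changed by 0.40 in Mbd3f/- and -0.59 in WT-1, and 33 members were higher in Mbd3f/- ES and lower in WT-1 ES, as were 31.0% of 13405 expressed genes; this was not tested. No member passed the test over both systems (limma; 0% of 20410 genes; 0 members and 515 genes at an unadjusted p under 0.05). That fit takes the iPSC level from all 4 systems, so its values are no plain means of the 2 differences. Its largest value was 0.04 ± 0.48 for Rrp9, which bounded the small-subunit group with Noc4l (-0.58 ± 0.40). The others ran from Fbl (-0.53 ± 0.47) to Nop58 (-0.15 ± 0.42), from Nhp2 (-0.51 ± 0.48) to Nop10 (-0.11 ± 0.42), from Polr1a (-0.38 ± 0.40) to Ddx21 (-0.11 ± 0.51) and from Rrs1 (-0.53 ± 0.59) to Ebna1bp2 (-0.02 ± 0.40). Within systems, Nop58 changed by 0.95 in Mbd3f/- and -0.88 in WT-1.

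The Myc libraries asked how far the members follow Myc. Day 4 libraries of Mbd3f/- cells are labelled OSK (Oct4, Sox2 and Klf4), cMyc, or both. The other 6 come from Mbd3f/- secondary fibroblasts with a cassette of Oct4, Klf4 and Sox2 without Myc, derived from chimeric animals. They were given siRNA against cMyc, nMyc and lMyc (siMyc), transfected before and at induction and collected on days 3 and 7, or a Myc inhibitor (day 3), or si-Scramble as the control (day 7, and 2 replicates of MEF). All but the control MEF are single libraries, so no test was made; a member counts as changed when it moved by more than 1.5 fold on log2(FPKM + 1). Between the 2 control MEF 0 members and 5.25% of 16436 genes passed that limit. Myc itself went against several labels: it stood at 0.510 FPKM in the library labelled cMyc, 3.16 with OSK and cMyc and 24.8 with OSK. It was 29.2 with siMyc on day 3, 29.4 with the inhibitor, 30.5 and 26.5 in control MEF, 10.99 with siMyc and 16.2 in the control on day 7. Whether reads of a Myc transgene entered these values is not stated, and an inhibitor need not change the mRNA. Whether library labels were exchanged was not tested; an exchange would turn or reassign the differences that follow, so each direction is that of a library as labelled.

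Members stood higher in the libraries labelled with cMyc. In the library labelled OSK with cMyc, 39 of 47 stood above OSK alone (20.8% of genes did; 26.7% stood below), 0 below, by a median of 1.13. Nhp2 measured 105 FPKM with OSK, 377 with OSK and cMyc and 476 with cMyc on day 4, 68.6 and 66.6 in the control MEF, 106 with siMyc and 57.8 with the inhibitor on day 3, and 70.2 with siMyc against 72.0 in the control on day 7. Its 2 libraries with cMyc stand apart from the rest. Ncl measured 119 FPKM with OSK, 276 with OSK and cMyc and 338 with cMyc on day 4, 52.8 and 51.4 in the control MEF, 57.6 with siMyc and 40.8 with the inhibitor on day 3, and 45.6 with siMyc against 35.7 in the control on day 7. Nucleolin follows the same order on day 4. Polr1b measured 9.95 FPKM with OSK, 31.5 with OSK and cMyc and 40.5 with cMyc on day 4, 4.82 and 3.89 in the control MEF, 4.95 with siMyc and 5.86 with the inhibitor on day 3, and 5.35 with siMyc against 4.97 in the control on day 7. The 3 genes thus share an order on day 4, lowest with OSK and highest with cMyc alone. The largest differences of OSK with cMyc over OSK were those of Rrp1b (2.34), Rrp9 (2.08), Bop1 (1.92), Nhp2 (1.84) and Nop10 (1.77). The smallest were those of Emg1 (-0.37), Dcaf13 (0.13), Ltv1 (0.20), Fbl (0.23) and Gar1 (0.27). All groups took part: 16 of 17 large-subunit, 13 of 16 small-subunit, 4 of 6 C/D and chaperone, 3 of 4 H/ACA and 3 of 4 transcription factors of ribosomal DNA. In the same pair of libraries 10 of 16 proliferation markers stood lower and 0 higher (median -0.70), and 8 of 12 p53 target genes stood higher. OSK with cMyc differed little from cMyc alone: 0 members stood higher and Gar1 (-0.67) lower (11.1% of genes did; 16.5% stood higher), with a median of -0.23. After Gar1 the lowest were Emg1 (-0.55), Rrp1b (-0.51), Noc4l (-0.49) and Nolc1 (-0.45), while the highest were Bysl (0.25), Tsr1 (0.15), Ltv1 (0.05), Noc2l (0.02) and Nop10 (0.02). Gar1 no longer passed after quantile normalization.

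The libraries labelled siMyc did not hold lower members. On day 7, 1 member, Utp20 (0.63), stood above the si-Scramble control and 0 below (8.88% of genes stood higher, 10.3% lower), with a median of 0.18. The ends were Utp20, Wdr12 (0.57), Rrp12 (0.56), Heatr1 (0.51) and Ftsj3 (0.50) on the high side and Emg1 (-0.11), Gar1 (-0.05), Nop10 (-0.04), Nhp2 (-0.04) and Noc4l (-0.03) on the low side. On day 3, 8 members stood above the control MEF and 0 below (9.87% and 21.0% of genes), with a median of 0.29; time and siRNA cannot be told apart there, as the control MEF is no day 3 library. Rrp12 led (0.95), followed by Grwd1 (0.89), Rrp9 (0.86), Nop2 (0.75) and Bysl (0.75), and the lowest were Rrp1b (-0.42), Krr1 (-0.38), Dkc1 (-0.30), Polr1c (-0.22) and Npm1 (-0.21). After quantile normalization 15 stood above. The control itself moved from MEF to day 7, with 8 members higher and 1 lower (15.5% and 12.9% of genes), or 3 higher and 5 lower after quantile normalization. Rrp12 (1.04), Bop1 (0.71), Polr1a (0.67), Utp20 (0.65) and Nop2 (0.65) stood highest, Npm1 (-0.82), Dkc1 (-0.58), Nop58 (-0.56), Ncl (-0.53) and Gar1 (-0.51) lowest. Proliferation markers stood lower in 14 of 16 cases in that step.

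Fewer members than genes in general passed the limit with the inhibitor. On day 3, 7 stood below the control MEF and 1 above (22.8% of genes lower, 19.6% higher), with a median of -0.13. Time and inhibitor cannot be told apart in any comparison with the control MEF, which is no day 3 library. Of the 4 H/ACA proteins 3 were lower. Dkc1 measured 53.1 FPKM with OSK, 175 with OSK and cMyc and 219 with cMyc on day 4, 26.9 and 26.3 in the control MEF, 21.4 with siMyc and 15.7 with the inhibitor on day 3, and 19.95 with siMyc against 17.5 in the control on day 7. The lowest differences were those of Dcaf13 (-1.07), Gar1 (-0.81), Ltv1 (-0.78), Nop10 (-0.76) and Dkc1 (-0.72). Nat10 (0.84) was the 1 member above the limit (3 above and 8 below after quantile normalization), followed by Polr1a (0.51), Noc2l (0.49), Rrp1b (0.46) and Rrp12 (0.45). Of the 16 proliferation markers 14 stood lower with the inhibitor. Set side by side on day 3, siMyc stood above the inhibitor for 18 members and below it for 2 (21.6% and 29.3% of genes), with a median of 0.47. Dcaf13 (1.30), Gar1 (1.30), Nop10 (1.28), Rrp9 (1.27) and Nop16 (1.20) differed most, and Rrp1b (-0.89), Krr1 (-0.61), Polr1c (-0.42), Polr1a (-0.37) and Nat10 (-0.35) stood lower with siMyc. These comparisons share the control MEF or the siMyc and inhibitor libraries. The 8 members with CACGTG had a median of 1.35 in OSK with cMyc over OSK, the 33 without it 1.13, with ranges of 0.20 to 1.70 and -0.37 to 2.34. In the inhibitor library over control MEF their medians were -0.27 and -0.13. For siMyc over the control they were 0.22 and 0.12 on day 7, and over control MEF on day 3 0.23 and 0.29. In OSK with cMyc over cMyc they were -0.07 and -0.25, and in the day 7 control over MEF 0.21 and 0.15. Medians of siMyc over inhibitor were 0.32 and 0.44. The ranges overlapped in each comparison, and no difference was tested.

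**Figure D5:**
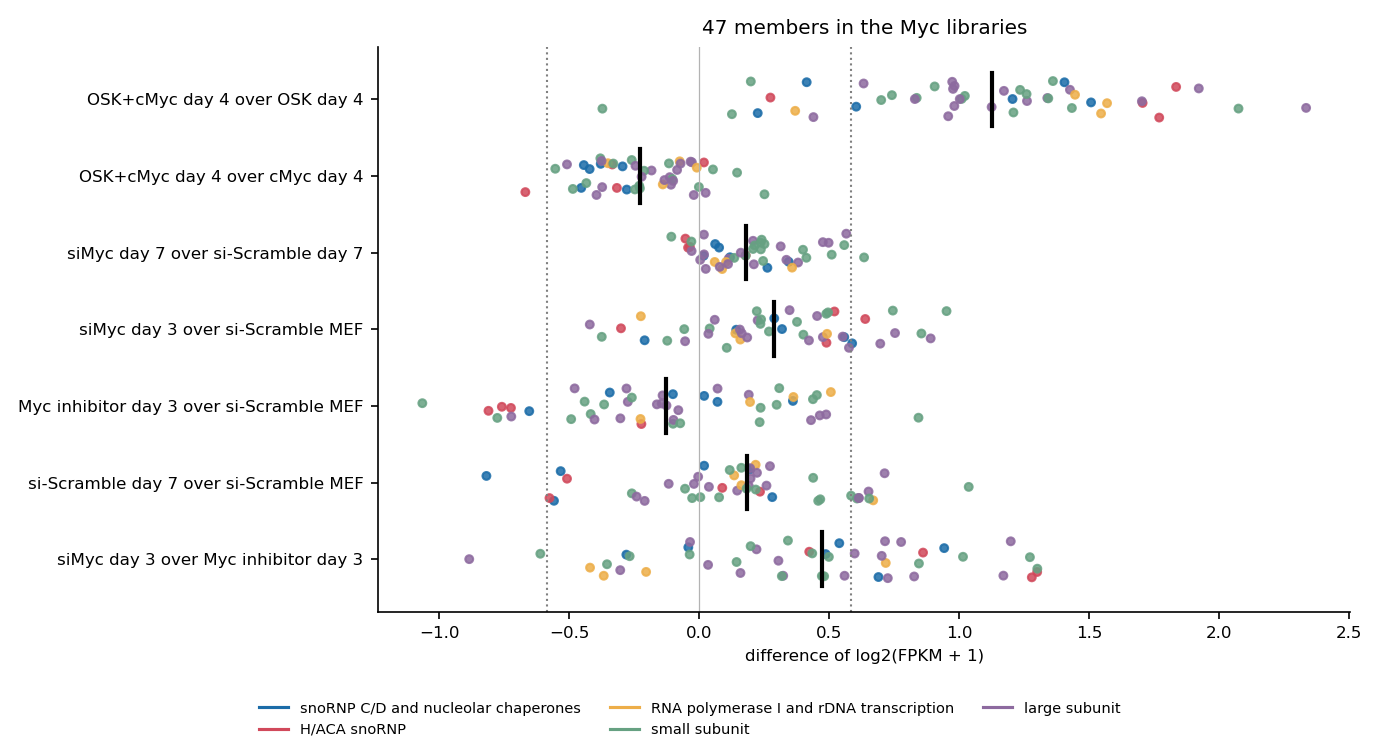
Difference of log2(FPKM + 1) of the 47 members in each of 7 comparisons of the Myc libraries, 1 point per member coloured by role, the black bar the median and the dotted lines the limit of 1.5 fold. The members lie to the right in OSK with cMyc over OSK (39 past the limit). Against the si-Scramble libraries the medians are 0.18 (siMyc day 7), 0.29 (siMyc day 3) and -0.13 (inhibitor). In siMyc over inhibitor the median is 0.47, with 18 members past the limit above and 2 below. Points are jittered vertically.

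The mRNA of the Myc family was read beside the members along the courses. Myc in Mbd3f/- was 13.0 FPKM in MEF and 9.48, 3.59, 0.495, 0.0919, 0.174, 0.311, 1.01 and 3.65 on days 1 to 8, so the members were near their peak on day 3 while Myc was under 1 FPKM. In Gatad2a-/- it was 19.4 in MEF and 55.4, 54.5, 50.2, 44.4, 32.9, 15.7, 8.95 and 5.64 on days 1 to 8. In WT-1 Myc stood at 17.2 in MEF and 18.9, 129, 129.8 and 116 on days 2, 4, 6 and 8, and in WT-2 at 19.6 and 24.9, 6.15, 6.47 and 6.17. The step of Myc in WT-1 fell between the same days as that of the members, and in WT-2 neither moved up between day 2 and day 8. Mycn rose between MEF and iPSC by 4.09 ± 0.61 (limma adjusted p = 9.52e-05, n = 4 systems) and Mycl by 1.49 ± 0.40 (limma adjusted p = 0.00700), while Myc had -0.97 ± 1.01 (limma adjusted p = 0.446). Mycl rose on day 1 in the depleted systems by 2.35 ± 0.31 (limma adjusted p = 0.00037), from 2.41 to 14.5 FPKM in Mbd3f/- and from 1.26 to 11.9 in Gatad2a-/-. Whether the transgene's reads count towards Myc is not known here, and its part in the members' course was not tested.

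A wider list of 112 ribosome biogenesis genes that are no members is set beside them here. It was chosen by function, but with earlier results of these data known, so it is not independent of them. Between MEF and iPSC 103 rose (median 1.41) and 1 fell, Zcchc9 (-0.60 ± 0.13, limma adjusted p = 0.0013). The largest rises were those of Exosc5 (2.84 ± 0.38), a subunit of the RNA exosome, and Mdn1 (2.83 ± 0.37), a large ATPase that remodels the large subunit. On day 1, 98 of the 112 rose in the depleted systems, led by Lyar (3.22 ± 0.39) and the polymerase subunit Polr1e (3.08 ± 0.41). On day 2 it was 83 in the depleted systems and 0 in WT (limma), on day 8 it was 72 (and 1 lower, Zcchc9) and 0, and from day 8 to iPSC 0 and 80. The class difference was called for Brix1 and Bms1 on day 2 and for 10 of the 112 on day 8, a share near the 8.40% of all genes called higher there, among them Tcof1 (2.40 ± 0.64, limma adjusted p = 0.0218), the treacle protein of ribosomal DNA transcription, and Exosc5 (2.56 ± 0.77). In OSK with cMyc over OSK, 63 of the 112 stood higher and 6 lower.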

How the data were processed

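PolyA RNA was sequenced from 43 mouse libraries. The authors deposited FPKM values per gene in 5 tables, normalized separately; per the submitters' processing notes, CASAVA 1.8.2, TopHat2 2.0.10, Cufflinks 2.2.1 and mm10 were used. The labels name neither an annotation release nor whether strand was used, and depth is unknown. The 47 members and all gene lists were chosen with earlier results of these data known. Genes with at least 1 FPKM in at least 2 libraries were fitted on log2(FPKM + 1) with limma 3.58.1 (R 4.3.3; trend and robust empirical Bayes), with class by stage means and the system as a block, over 24 libraries of shared stages, 20 of the daily courses or 26 with ES. P-values were Benjamini-Hochberg adjusted over all genes tested, with a threshold of 0.05, and SE is the standard error of the fit. Both rest on the scatter left after the stage means and the system block, pooled over all stages and classes of a fit. That scatter has 10 residual degrees of freedom, or 9 in the daily courses. Stages of a system are treated as independent, and a contrast of 2 systems borrows the scatter of the other libraries. Fold changes of low genes are understated on this scale. The Myc libraries, single but for the control MEF, got no test. Named genes are, per role and comparison, the largest and smallest change, and up to 5 of the lowest adjusted p in class differences. Uncalled members were named as well where most members passed. In the Myc libraries the 5 largest differences each way are named. Values by stage are given for a fixed set of members and for the largest and smallest change from MEF to iPSC. On simulated data only the fit of day 8 minus MEF, in the depleted and in the WT systems, was tried. Its noise was independent between libraries, so it cannot check whether stages are independent. Alternatives were the pseudocount, filter, quantile normalization, block, empirical Bayes settings, stages used, fold limit and leaving out a system; leaving out the day 6 libraries was chosen after seeing the data. Loci are from GENCODE (GRCm38).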

Additional observations from a re-analysis of the deposited data

Results flagged for a closer look

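On day 2 the change from MEF differed between the depleted and the WT systems for Ncl, by 2.66 ± 0.64 (SE, n = 2 systems per class, limma adjusted p = 0.0481), and for Nop16, by 2.10 ± 0.49 (limma adjusted p = 0.0418), both higher in 2 of 2 depleted systems than in either WT system. Of all genes, 0.557% were called higher in the day 2 test, and 28.1% showed this order of the systems. On day 8 the difference between the classes was 1.53 ± 0.39 for Ddx10 (limma adjusted p = 0.0172). For Krr1 it was 1.81 ± 0.45 (limma adjusted p = 0.0154). In the day 8 test 8.40% of all genes were called higher, so 2 of 47 members is below the background. The same order of the systems held for 32.7% of genes on day 8. The calls of Ncl and Nop16 were lost when any 1 of the 4 systems was left out, with a pseudocount of 0.1 and without the filter on low values. Those of Ddx10 and Krr1 were lost without Mbd3f/-, Gatad2a-/- or WT-2 and held without WT-1.

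From day 3 to day 4, 41 of the 47 members were lower in Mbd3f/- and higher in Gatad2a-/- (28.4% of 15536 expressed genes were), and from iPSC to ES 33 were higher in Mbd3f/- and lower in WT-1 (31.0% of 13405). Neither difference between systems was tested, since each side is 1 library against 1.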

How the results depend on the processing

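Counts of members called between MEF and iPSC stayed at 40 to 47 under every setting run (45 to 47 when a system was left out), and 0 stayed 0 for day 2 and day 8 in WT, day 8 to iPSC in the depleted systems, day 3 to day 4 and iPSC to ES. The other counts moved. On day 2 in the depleted systems, 1 member passed without the system block, 15 with the compared stages alone and 0 to 39 when a system was left out. The class difference on day 2 had 0 calls with a pseudocount of 0.1, without the filter, without the system block, with the compared stages alone and without the day 6 libraries, 1 without trend and robust fitting, 4 after quantile normalization and 0 to 10 when a system was left out. On day 8 in the depleted systems it was 1 without the system block and 0 to 32 with a system left out, and for the class difference 0 without the block, 0 with the compared stages alone and 0 to 6 with a system left out. From day 8 to iPSC in WT it was 1, 21 and 0 to 43. On day 1 it was 24 without the block. The cause was not tested, except that leaving out a system leaves 1 library per stage in its class, which is then assumed to vary like the others. The fit of iPSC to ES with the compared stages alone could not be fitted, as no residual degree of freedom is left. In the Myc libraries, OSK with cMyc over cMyc had 0 members past the limit after quantile normalization and 0 at 2 fold. siMyc over control on day 7 had 4 with a pseudocount of 0.1 and 0 at 2 fold, siMyc on day 3 over MEF had 15 after quantile normalization and 0 at 2 fold, and at 2 fold the inhibitor had 1, the day 7 control 1 and siMyc over inhibitor 7. Quantile normalization moved the median change of all genes on day 8 in the depleted systems from 0.23 to 0.10, and the members' from 1.42 to 1.31. Of the 499 values that the alternatives gave for the 49 named member changes that passed, 379 passed again, 120 kept their direction without passing and 0 reversed. Some changes that had not passed did change sign: Ncl -0.0141 (day 2, WT, quantile normalization), Polr1a 0.0066 (day 8, WT, quantile normalization), Ebna1bp2 0.0301 (iPSC to ES, quantile normalization), Ebna1bp2 0.47 (iPSC to ES, no system block), Nop10 0.19 (iPSC to ES, no system block), Nop58 0.0297 (iPSC to ES, no system block), Ebna1bp2 0.0253 (iPSC to ES, without the day 6 libraries). With a system left out, other uncalled changes changed sign and ranged as follows. For day 2, WT they were Ddx21 -0.44 to 0.41, Gar1 -0.38 to 0.20, Tsr1 -0.39 to 0.048, Mrto4 -0.13 to 0.55, Ncl -0.26 to 0.30, Nhp2 -0.0668 to 0.58, Noc4l -0.12 to 0.48, Polr1c -0.21 to 0.52. For day 8, depleted they were Polr1a -0.0721 to 1.63. For day 8, WT they were Dkc1 -0.20 to 0.91, Ncl -0.36 to 0.83, Polr1b -0.33 to 1.25, Polr1a -0.30 to 0.17. For day 8, depleted minus WT they were Emg1 -0.18 to 0.64, Nop16 -0.19 to 0.79, Nop10 -0.94 to 0.66, Npm1 -0.0204 to 1.65. For day 8 to iPSC, depleted they were Nop58 -0.0141 to 0.15, Dcaf13 -0.50 to 0.14, Noc2l -0.15 to 0.28. For iPSC to ES they were Ebna1bp2 -1.06 to 1.02, Ddx21 -0.60 to 0.38, Nhp2 -1.298 to 0.28, Nop10 -1.16 to 0.93, Nop58 -1.32 to 1.02, Rrp9 -0.12 to 0.33. The depth behind these FPKM is unknown, so counting error could not be set beside any value. Stages were paired within systems by the system term, and the counts without it are those given above; the labels number replicates for the control MEF alone, so no fit by replicate number was made.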

Other observations

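Genes of the p53 pathway and stress signs were read in the same fits. Of 12 p53 target genes 4 rose and 2 fell between MEF and iPSC (limma), where 29.0% of all genes rose and 23.9% fell. In WT 4 of the 12 fell from day 8 to iPSC, where 15.7% of all genes fell and 42 of the 47 members rose. A relation between the p53 target genes and the members was not tested. Of 8 stress and RNA quality signs 5 fell and 0 rose between MEF and iPSC. Skeletal muscle, keratinocyte and endothelial markers had 2, 4 and 3 genes tested, of which 1 each fell and 1 endothelial marker rose.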
